A study of Mus musculus with 6 samples.

Results

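Entry into the cell division cycle in mouse oligodendrocyte progenitor cells (OPCs), the dividing precursors of myelin-forming oligodendrocytes, was followed here through the transcripts of 10 genes. They were the D-type cyclins Ccnd1, Ccnd2 and Ccnd3, the cyclin-dependent kinases Cdk2, Cdk4 and Cdk6, the kinase inhibitors Cdkn1b, Cdkn1c and Cdkn2c, and Rb1. The genes were chosen by symbol, all 10 were found among 24421 listed genes, and all 10 passed the filter on low counts that left 15906 tested genes. RNA-seq was available for 6 libraries of cultured OPCs. The 3 control libraries were from Prrc2bf/f mice, with floxed alleles of the RNA-binding protein gene Prrc2b and no Cre, and the 3 knockout libraries from Prrc2bf/f; Olig2-Cre mice. Both groups therefore carried the floxed alleles, and were C57BL/6J pups of postnatal day 4. Olig2-Cre recombines in cells that express Olig2, which are not only OPCs. No library carried Cre without floxed alleles, so Prrc2b loss and effects of Cre or its allele cannot be told apart. Per the labels' protocols, cortical cells were taken through GalC and O4 panning and grown in proliferation medium with PDGF-AA and bFGF, while the series' design text speaks of brain tissue. The labels do not say whether libraries came from separate animals, so the spread that p-values rest on may be technical.

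Mitogens such as PDGF raise D-type cyclins, which bind and activate CDK4 and CDK6. These kinases, and then CDK2 with E-type cyclins, phosphorylate the retinoblastoma protein RB, which releases E2F transcription factors and starts the genes of DNA replication. Inhibitors of the INK4 family bind CDK4 and CDK6, and those of the CIP/KIP family bind cyclin-CDK complexes. In OPCs this balance is known as a switch between further division and exit from the cycle toward differentiation. Most of this control acts on protein amount, location and phosphorylation, which transcript counts do not show.

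Libraries held 26015604 to 28114968 gene counts. Levels are gene counts scaled to the usual unit CPM by the library total, and per-length levels divide CPM by the kilobases of exon in the annotation (RPKM). Prrc2b, the targeted gene, was measured at 928, 1080 and 931 CPM in control libraries 1, 2 and 3 and at 653, 826 and 771 CPM in knockouts. The groups did not overlap, and the counts of the gene were reduced, not lost (with the block, log2 fold change -0.41, SE 0.06, adjusted p by edgeR = 0.00688, and -0.41 with SE 0.13 and adjusted p = 1.00 without it). These counts are for the whole gene and all cells of a library, so they do not show how much intact transcript recombined OPCs kept. Libraries of the same number resembled each other across genotypes, so each number is called a pair below. With genotype as the only term, the planned main fit, edgeR called 0 genes (each call named below had an adjusted p of 1.00 in that fit). Calls therefore come from a second fit with the number as a block, and values are from that fit where it is named. The pairing behind the block was inferred from these same counts, so calls below depend on that choice. The libraries carried OPC transcripts along with those of other cell types. The 12 OPC markers summed to 2696 to 4660 CPM in controls and 2761 to 5512 CPM in knockouts, and the 13 neuron markers to 3080 to 4285 and 2588 to 4025 CPM. Sums for 10 astrocyte markers were 1400 to 2569 and 1686 to 3068 CPM, for 10 endothelial markers 20.5 to 98.4 and 49.3 to 342 CPM, for 10 pericyte and fibroblast markers 97.9 to 714 and 137 to 1141 CPM, for 9 ependymal and choroid plexus markers 349 to 1867 and 838 to 2774 CPM, and for 10 microglia markers 26.2 to 330 and 24.5 to 328 CPM. Of all these markers 0 were at 0 in every library. In bulk RNA, fewer cells of a type and less RNA per cell cannot be told apart.

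Cdk4 was the member called between genotypes in the fit with the replicate block, where the fit without it called 0 members. Its promoter is shown here with those of 2 other members, compared only for how often they hold the motif named next. CDK4 is the catalytic partner of the D-type cyclins, and its gene is a textbook target of MYC-family factors, which bind the E-box CACGTG. The 250 bases before the RefSeq start of the gene (GRCm38.p6) are printed 5′ to 3′ on the gene's strand, with every CACGTG in capitals. The Cdk4 window is chr10:127063285-127063534, the Cdk6 window chr5:3343643-3343892 and the Cdkn1b window chr6:134920151-134920400, all on the plus strand.
Cdk4: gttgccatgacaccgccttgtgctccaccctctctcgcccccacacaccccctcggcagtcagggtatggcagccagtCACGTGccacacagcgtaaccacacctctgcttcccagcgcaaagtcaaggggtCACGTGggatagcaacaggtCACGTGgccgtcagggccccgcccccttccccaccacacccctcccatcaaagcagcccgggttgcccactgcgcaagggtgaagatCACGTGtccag
Cdk6: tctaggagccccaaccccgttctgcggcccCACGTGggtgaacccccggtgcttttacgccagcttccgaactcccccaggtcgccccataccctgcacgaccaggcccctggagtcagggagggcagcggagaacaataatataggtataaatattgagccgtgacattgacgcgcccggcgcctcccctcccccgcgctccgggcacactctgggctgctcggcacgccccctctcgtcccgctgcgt
Cdkn1b: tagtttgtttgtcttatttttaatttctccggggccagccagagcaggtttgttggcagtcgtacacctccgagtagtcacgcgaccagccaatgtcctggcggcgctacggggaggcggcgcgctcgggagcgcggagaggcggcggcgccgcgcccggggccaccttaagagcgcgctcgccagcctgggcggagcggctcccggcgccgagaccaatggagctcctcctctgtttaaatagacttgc

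The Cdk4 window held 4 matches to CACGTG, starting 172, 118, 98 and 11 bases before the start. Cdk6 held 1, starting 220 bases before it, and the Cdkn1b window held 0. The motif reads the same on both strands, so a match was counted once. RefSeq windows were matched for 6 of the 10 members (8 windows, 2 each for Ccnd3 and Cdkn2c), and the members with a match were Cdk4 and Cdk6. Of 32851 promoter windows of the same length, 6.02% held at least 1 match and 0.0213% (7 windows) held at least 4. These windows were not matched for GC content, which was 64.4% in the Cdk4 window against a median of 52.4% over all windows. E2F motifs, searched on both strands as TTTCCCGC, TTTGGCGC, TTTCGCGC and TTTGCCGC, were found in 1.86% of all windows and in the window of 1 member, Cdk2, starting 140 bases before its start. The motifs were chosen after the values of Cdk4 were seen, and a match is letters in a window, not a binding site shown to be in use.

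Cdk4 transcript was lower in the knockout library of each pair. Its level was 292, 310 and 242 CPM in control libraries 1, 2 and 3 and 255, 276 and 227 CPM in knockout libraries 1, 2 and 3. The drop was seen within pairs, while the ranges of the groups overlapped, since control library 3 lay below 2 of the knockout libraries. The gene (ENSMUSG00000006728.12) lies on chromosome 10 from 127063534 to 127067920 of GRCm38. Without the block the log2 fold change was -0.18 (SE 0.14, adjusted p by the edgeR quasi-likelihood test = 1.00, unadjusted p = 0.225), and it moved to -0.09 without control library 2, -0.11 without knockout library 3 and -0.29 without control library 3. With the replicate block Cdk4 fell by 0.18 on the log2 scale (SE 0.04, 95% interval -0.26 to -0.09, adjusted p by edgeR = 0.0335), reaching 88.4% of control. That call was lost without pair 1, 2 or 3 (adjusted p by edgeR 0.131, 0.0933 and 0.0802), and with library totals (0.0572) or upper quartile scaling (0.0523), with the same direction throughout. The 3′ end of Cdk4 shares 641 bases with Tspan31 on the opposite strand, under a strand setting not given in the sources used here. Tspan31, a tetraspanin gene, stood at 79.1 ± 3.39 and 78.7 ± 8.94 CPM (with the block, log2 fold change -0.04, SE 0.06, adjusted p by edgeR = 0.803).

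Across the 10 members, 1 fell, 0 rose and 9 did not pass with the replicate block. Over all 15906 tested genes 3.8% were called, 1.57% as higher and 2.23% as lower, so a single member called in 10 rests on very few genes. The members' median log2 fold change with the block was -0.06, against 0.00 over all tested genes. At an unadjusted p under 0.05 with the block stood 3 members, Cdk4, Cdkn1b and Cdkn1c, and 18.2% of all tested genes. Without the block edgeR called 0 members and 0% of all genes, with 1.72% of genes at an unadjusted p under 0.05 and 0 members among them, and DESeq2 and limma-voom also called 0 members. Of the members, 0 had knockout and control ranges that did not overlap (6.11% of all tested genes did). The members lower in all 3 pairs were Cdk4, Cdkn1b and Cdkn1c, and 0 were higher in all 3 (16% and 23.9% of all tested genes).

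**Figure D1:**
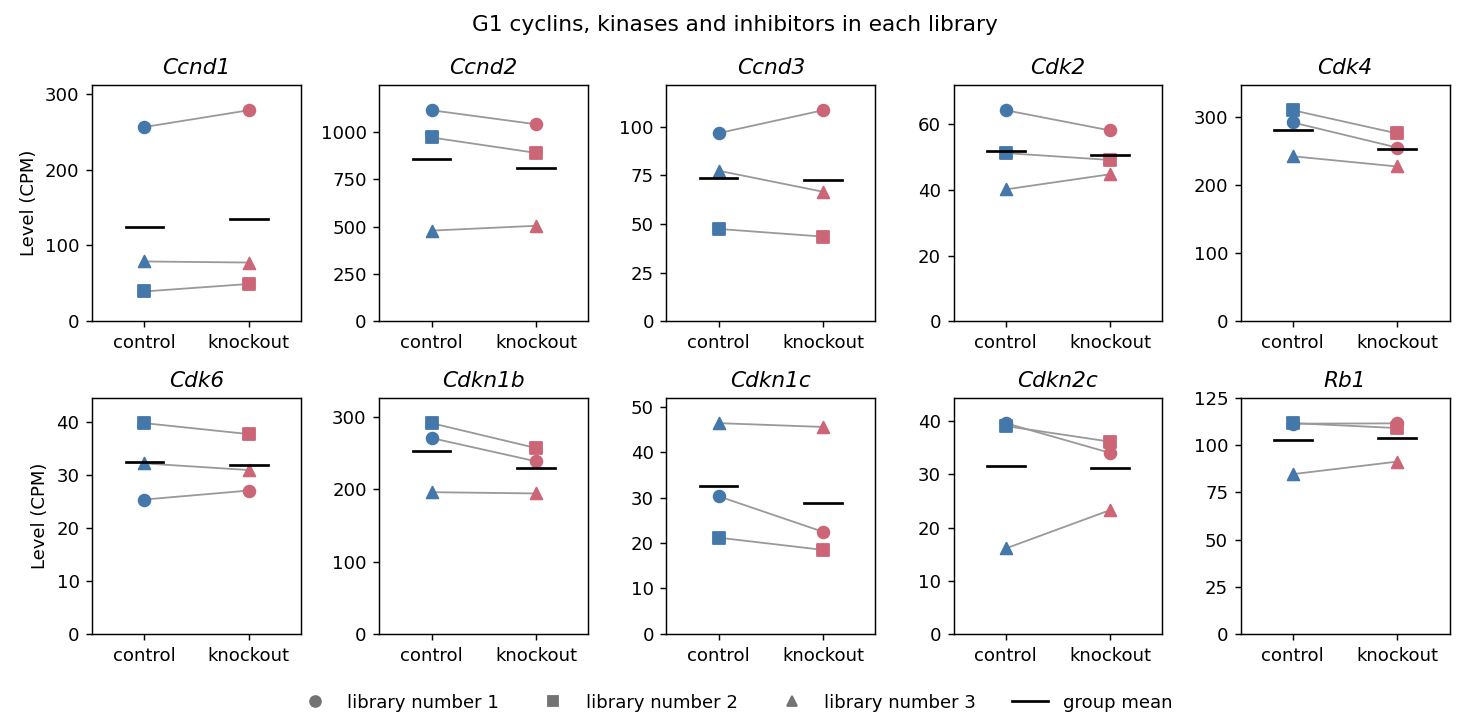
Level in CPM (vertical axes, from 0, scaled per gene) of each of the 10 genes in control (blue) and knockout (red) libraries, with lines joining libraries of the same number and black bars for group means. Lines that join pairs are close to level for most genes, and Ccnd1 stands at 257 and 279 CPM in the libraries numbered 1 against 39.2 to 78.9 CPM in the other four.

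Cdkn1b, which encodes the CIP/KIP inhibitor p27 that helps OPCs stop dividing, had values close in size to the change in Cdk4 but did not pass. Its level was 270, 291 and 196 CPM in controls and 238, 257 and 194 CPM in knockouts. Libraries 1 and 2 were lower in the knockout, and the libraries numbered 3 were nearly level (log2 ratio of CPM -0.01). The blocked log2 change was -0.15 (SE 0.04, 95% interval -0.25 to -0.05, adjusted p by edgeR = 0.0963), and -0.16 without the block (SE 0.19). Without the block it moved to -0.04 and -0.32 when control library 2 or 3 was left out, and to -0.26 and -0.05 when knockout library 2 or 3 was. It passed among the alternatives at a threshold of 0.05 only with no filter on low counts and the block (adjusted p by edgeR = 0.0429). The gene lies on chromosome 6 from 134920401 to 134925513.

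Cdkn1c encodes p57, another CIP/KIP inhibitor, from an imprinted gene on chromosome 7 (143458339 to 143461050). Control libraries stood at 30.3, 21.2 and 46.3 CPM and knockout libraries at 22.5, 18.5 and 45.5 CPM. The libraries numbered 3 were highest in both genotypes, and most of the difference came from pair 1, at a log2 ratio of -0.43, against -0.20 and -0.03 in pairs 2 and 3. The blocked log2 change was -0.24 (SE 0.10, adjusted p by edgeR = 0.231). Pericyte and fibroblast markers were also highest in the libraries numbered 3, at 714 and 1141 CPM summed against 97.9 to 217 CPM in the others. The ependymal and choroid plexus sum was too, at 1867 and 2774 against 349 to 1044 CPM. Most of it was Ttr, at 1756 CPM in control library 3 and 2616 CPM in knockout library 3. Kl and Folr1 were also highest in the libraries numbered 3. The rest of that list (Foxj1, Ccdc153, Dynlrb2, Tmem212, Rarres2 and Enkur) was highest in the libraries numbered 1. The part of these cell types in the level of Cdkn1c was not tested.

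Cdkn2c, on chromosome 4 (109660876 to 109667189), encodes p18, an INK4 inhibitor of CDK4 and CDK6. It stood at 39.6, 39.1 and 16.1 CPM in controls and 34.0, 36.1 and 23.3 CPM in knockouts. Pairs 1 and 2 were lower in the knockout and pair 3 was higher, by 0.53 on the log2 scale, which gave a blocked log2 change of 0.03 with a wide interval of -0.27 to 0.33 (adjusted p by edgeR = 0.944). Its sign depended on the setting.

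Among the D-type cyclins, Ccnd2 was the most abundant in every library and Ccnd1 the most variable between libraries of one genotype. Per length, Ccnd2 made up 64.4%, 88.3% and 66.5% of D-type cyclin transcript in control libraries 1, 2 and 3 and 60.7%, 86.0% and 69.0% in knockout libraries. Ccnd1 made up 29.6%, 7.12% and 21.9% in controls and 32.5%, 9.49% and 21.2% in knockouts. Ccnd3 made up the smallest share in every library, from 4.51% to 11.5%. The summed per-length level of the D-type cyclins was 184, 117 and 76.4 RPKM in controls and 182, 110 and 77.6 RPKM in knockouts. Both the amount and the make-up thus followed the library number, and differed little between genotypes within a pair.

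**Figure D2:**
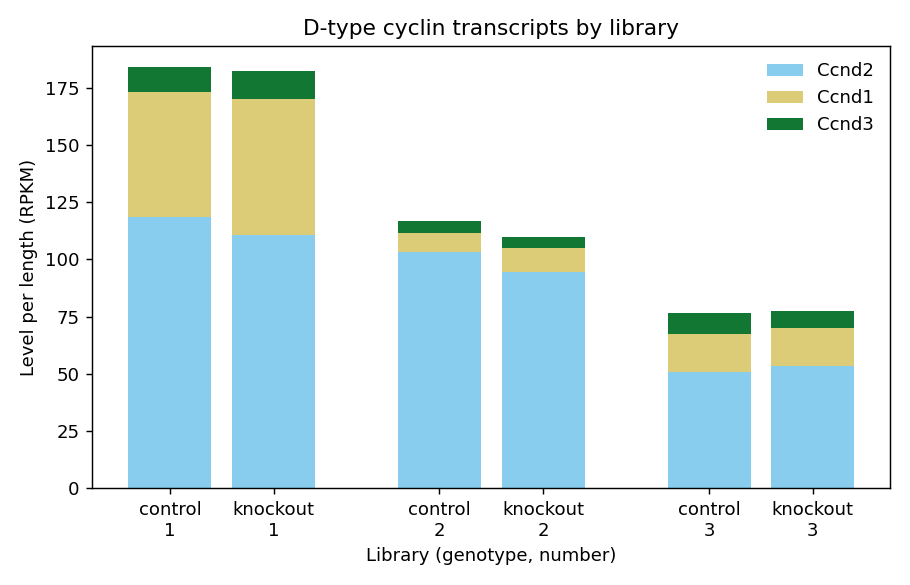
Stacked per-length levels (RPKM) of Ccnd2, Ccnd1 and Ccnd3 in each library, ordered by number and then genotype. Bars of the same number reach similar heights, from 184 and 182 RPKM for number 1 to 76.4 and 77.6 RPKM for number 3, and Ccnd2 is the largest part of every bar.

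Ccnd1, on chromosome 7 (144929931 to 144939925), is the D-type cyclin most often tied to mitogen signalling. It stood at 257, 39.2 and 78.9 CPM in controls and 279, 49.1 and 77.5 CPM in knockouts. The highest control library exceeded the lowest 6.55-fold, and the same ratio in knockout libraries was 5.68. Over 10557 tested genes averaging 10 CPM or more the median of that ratio was 1.28 in either genotype, and 1.02% of genes in controls and 1.18% in knockouts had a larger one than Ccnd1. The blocked log2 change was 0.11 (SE 0.06, 95% interval -0.03 to 0.25, adjusted p by edgeR = 0.400). Without the block the interval reached from -1.96 to 2.15, so the groups alone could not show even a large change. Summed OPC markers were highest in the libraries numbered 1 (4660 and 5512 CPM) and lowest in those numbered 2 (2696 and 2761 CPM). This was the order of Ccnd1, and summed astrocyte markers had it too (2569 and 3068 against 1400 and 1686 CPM). Single OPC markers did not all follow their sum. Its largest part, Ptprz1, was higher in control library 3 (2331 CPM) than in control library 1 (2224 CPM). Olig2, Sox10, Vcan, Gpr17, Matn4 and Neu4 were lower in control library 3 than in control library 2. In knockouts only Vcan and Neu4 were lower in library 3 than in library 2. The part of either cell type in the level of Ccnd1 was not tested.

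Ccnd2, on chromosome 6 (127125162 to 127152193), is a cyclin of cycling neural progenitors. Its level was 1115, 971 and 478 CPM in controls and 1041, 889 and 504 CPM in knockouts. It was lowest in both libraries numbered 3, where the 20 genes of G2 and mitosis also summed lowest, at 848 and 1041 CPM against 2033 to 2265 CPM in the others. The blocked log2 change of Ccnd2 was -0.08 (SE 0.06, interval -0.20 to 0.05, adjusted p by edgeR = 0.523). Ccnd3, on chromosome 17 (47505051 to 47599691), stood at 96.8, 47.5 and 77.4 CPM in controls and 109, 43.5 and 66.6 CPM in knockouts. It was higher in the knockout in pair 1 and lower in the others, with a blocked log2 change of -0.08 (SE 0.08, interval -0.26 to 0.09, adjusted p by edgeR = 0.645).

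Cdk6 and Cdk2 showed little difference between genotypes. Cdk6, the other partner of the D-type cyclins, lies on chromosome 5 (3341485 to 3531008) and stood at 25.3, 39.7 and 32.2 CPM in controls and 27.0, 37.7 and 30.9 CPM in knockouts. Its blocked log2 change was -0.04 (SE 0.08, interval -0.23 to 0.14, adjusted p by edgeR = 0.851). Across numbers it ran opposite to Ccnd1, lowest in the libraries numbered 1 and highest in those numbered 2. Per length, Cdk4 exceeded Cdk6 by 31.5-fold to 49.6-fold over the 6 libraries. Cdk2, the kinase of late G1 and S phase on chromosome 10 (128697939 to 128705031), stood at 64.4, 51.3 and 40.2 CPM in controls and 58.2, 49.2 and 44.8 CPM in knockouts, with a blocked log2 change of -0.04 (SE 0.08, interval -0.21 to 0.12, adjusted p by edgeR = 0.814).

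Rb1, which encodes the substrate that these kinases act on, was the member nearest to no difference. It stood at 111, 112 and 84.7 CPM in controls and 112, 109 and 91.4 CPM in knockouts. The libraries numbered 3 were lowest in both genotypes. The blocked log2 change was 0.00 (SE 0.05, adjusted p by edgeR = 0.992), with an interval of -0.12 to 0.12, while the interval without the block was wider, from -0.38 to 0.36. The gene spans chromosome 14 from 73183673 to 73325822 and overlaps Lpar6 and Rcbtb2 on the opposite strand. Lpar6, a lysophospholipid receptor gene within an intron of Rb1, stood at 10.0, 8.68 and 8.15 CPM in controls and 13.1, 11.9 and 11.1 CPM in knockouts (with the block, log2 fold change 0.40, SE 0.12, adjusted p by edgeR = 0.117). It is named here for its position, after its values were seen.

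**Figure D3:**
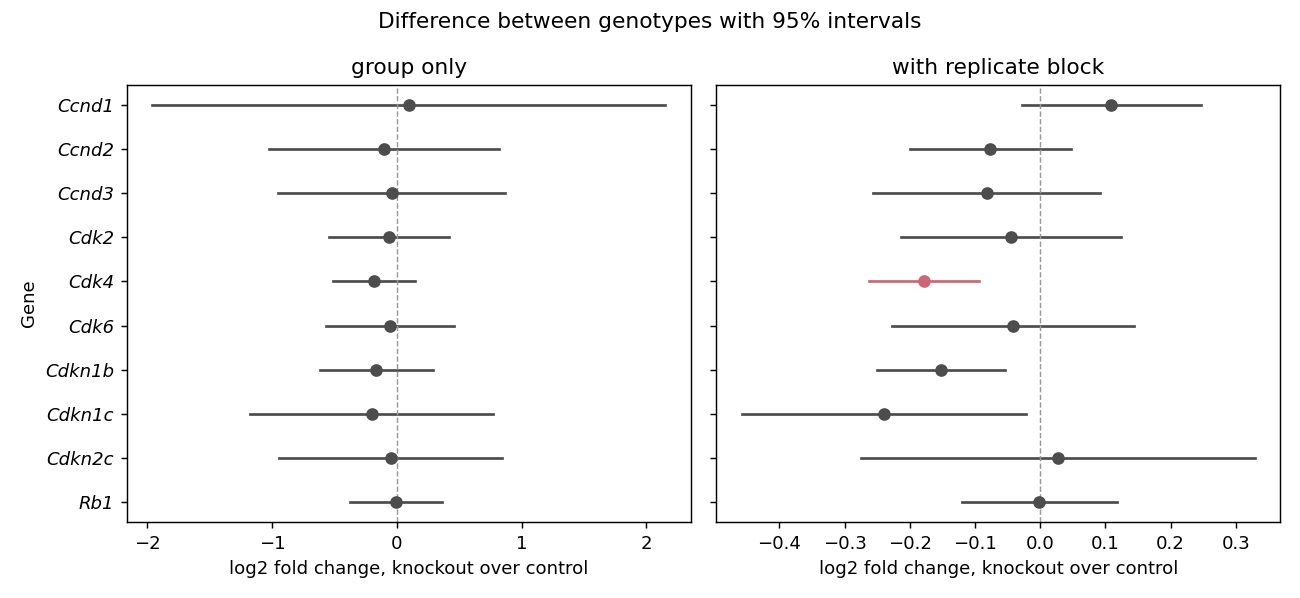
Log2 fold change of knockout over control for the 10 genes, with 95% intervals, from the fit with group only (left) and with the replicate block (right, on a narrower axis). Intervals for Ccnd1 shrink from -1.96 to 2.15 on the left to -0.03 to 0.25 on the right, and Cdk4, in red, is the gene with an adjusted p under 0.05.

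Per length, the members spanned a wide range of levels. In control libraries the order was Ccnd2 (90.8 ± 35.5 RPKM), Cdk4 (86.6 ± 10.8), Cdkn1b (55.4 ± 11.0), Ccnd1 (26.5 ± 24.6), Rb1 (17.1 ± 2.58), Cdkn1c (16.0 ± 6.25), Cdkn2c (11.8 ± 5.00), Ccnd3 (8.42 ± 2.83), Cdk2 (8.35 ± 1.94) and Cdk6 (2.32 ± 0.515 RPKM; SD, n = 3). Knockout libraries gave the same order. Ranges over the 6 libraries separated Cdk4 from Cdkn1b and Cdk2 from Cdk6, and all other neighbours in the order overlapped. With the length of the longest transcript in place of all exons, Cdk4 came before Ccnd2 and Ccnd3 moved from place 8 to place 6.

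Levels of the members over the 6 libraries fell into a few shapes, given here as a description. Because same-numbered libraries are alike, they amount to little more than 3 distinct points, at which many unrelated genes correlate closely. Pearson r of log2 CPM was 0.98 for Ccnd2 with Rb1 and for Cdkn2c with Rb1, and 0.97 for Cdk4 with Cdkn1b. It was 0.94 for Ccnd1 with Ccnd3, and -0.96 for Ccnd1 with Cdk6. Among 10556 other genes averaging 10 CPM or more, those most like Ccnd1 were Gfra1 and Prrx1 (r = 1.00 and 0.99), and those most like Ccnd2 were Cnpy4 and Cdk17 (r = 1.00 for both). Ptrh2 and Hnrnpul1 were most like Cdk4, Paip1 and Kmt2d most like Cdkn1b, and Topbp1 and Cdh2 most like Cdkn2c. Nab2 and Prkg2 were most like Ccnd3, Ppp2r5d and Slc7a5 most like Cdk2, Stmn4 and Appl1 most like Cdk6, and Manbal and Tnfrsf21 most like Cdkn1c. For Rb1 they were Atad2 and the mitotic kinase gene Plk1.

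The wider machinery of G1 also moved little between genotypes with the replicate block. Of 16 tested genes listed with other G1 cyclins, kinases and CDK inhibitors, 1 rose, 0 fell and 15 did not pass. Their median log2 fold change was 0.07. The gene that rose was Cdkn1a, which encodes p21, the CIP/KIP inhibitor known as a target of p53. It stood at 89.9, 107 and 73.8 CPM in controls and 114, 122 and 122 CPM in knockouts. All its knockout libraries lay above all control libraries (the ranges of 6.11% of all tested genes did not overlap, in either direction). The blocked log2 change of Cdkn1a was 0.39 (SE 0.09, adjusted p by edgeR = 0.0481), and 0.37 without the block (SE 0.15, adjusted p by edgeR = 1.00). The call was lost without pair 3 (adjusted p by edgeR = 0.143, log2 fold change 0.24), among genes averaging 5 CPM or more (0.0633), after correction for GC content (0.0629) and with DESeq2 size factors (0.0503). Others of the list with the smallest adjusted p were Ccng2, a cyclin-like gene of resting cells (-0.21, SE 0.06, adjusted p by edgeR = 0.109), the mitotic brake Wee1 (-0.17, SE 0.07) and the INK4 gene Cdkn2b (0.49, SE 0.25, at 2.71 ± 1.52 and 3.67 ± 1.33 CPM).

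Of 16 genes listed under the RB family and E2F, with Tfdp and Lin genes among them, 0 rose and 0 fell. Their median log2 fold change was -0.05. E2f1, an activator of replication genes, had the smallest adjusted p, at 34.5 ± 9.62 and 30.4 ± 4.45 CPM (with the block, log2 fold change -0.18, SE 0.10, adjusted p by edgeR = 0.420). The RB relatives Rbl1 and Rbl2 were at -0.09 (SE 0.07) and -0.08 (SE 0.06), and the E2F partner Tfdp2 at -0.08 (SE 0.06). Of 20 S phase genes known as E2F targets, 1 fell, 0 rose and 19 did not pass, with a median of -0.02. Mcm2, a subunit of the replicative helicase, went from 96.9, 85.5 and 67.0 CPM to 79.6, 73.0 and 58.2 CPM and was lower in every pair. The blocked log2 change was -0.27 (SE 0.05, adjusted p by edgeR = 0.0308), and without it -0.27 (SE 0.18, adjusted p by edgeR = 1.00). Mcm2 lost the call without pair 1, 2 or 3 (adjusted p by edgeR 0.129, 0.102 and 0.0849), with library totals (0.0514) and among genes averaging 5 CPM or more (0.0572). The licensing factor Cdt1 (-0.25, SE 0.08), thymidine kinase Tk1 (0.31, SE 0.13) and the single-strand binding subunit Rpa2 (-0.19, SE 0.08) did not pass. The summed level of the 20 genes was 1517, 1371 and 990 CPM in controls and 1427, 1309 and 1057 CPM in knockouts.

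Genes listed for the turnover of G1 cyclins and inhibitors, with ubiquitin ligase parts and deubiquitinases among them, gave 1 fall and 0 rises among 15 tested. Their median log2 fold change was 0.00. Fzr1, which encodes the activator CDH1 of the anaphase-promoting complex that holds cells in G1, stood at 90.7, 86.4 and 84.7 CPM in controls and 75.9, 70.0 and 69.3 CPM in knockouts. All knockout libraries lay below all control libraries (the ranges of 6.11% of all tested genes did not overlap, in either direction). The blocked log2 change was -0.31 (SE 0.05, adjusted p by edgeR = 0.0180), and -0.31 without the block (SE 0.09, adjusted p by edgeR = 1.00). After correction for GC content it was -0.17 (adjusted p by edgeR = 0.152), and the call was also lost without pair 2 or 3 (0.0607 and 0.0695). Fbxo31, a ubiquitin ligase subunit known to act on cyclin D1, was at -0.28 (SE 0.07, adjusted p by edgeR = 0.0783), the deubiquitinase gene Usp2 at 0.21 (SE 0.08) and the ligase subunit Rbx1 at -0.09 (SE 0.05).

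Of 20 genes of G2 and mitosis 0 rose and 0 fell, with a median log2 fold change of 0.05. Mki67, the marker of dividing cells, stood at 393 ± 175 and 413 ± 149 CPM (with the block, log2 fold change 0.09, SE 0.06, adjusted p by edgeR = 0.502), Cdk1 at 0.19 (SE 0.11), Cdc20 at -0.12 (SE 0.08) and Ube2c at -0.15 (SE 0.10). Of 20 genes of signalling upstream of D-type cyclins, which need not act in 1 direction, 0 rose and 0 fell, with a median of 0.05. Hes1, a Notch target, was at 0.32 (SE 0.09, adjusted p by edgeR = 0.0957), the PDGF receptor gene Pdgfra at 0.09 (SE 0.04) and Smad4 at -0.09 (SE 0.04). Mycn, a MYC-family gene, was lower in all 3 pairs, at 90.9 ± 25.8 and 79.2 ± 15.4 CPM, but did not pass (-0.21, SE 0.07, adjusted p by edgeR = 0.145). Myc itself stood at 61.9 ± 30.2 and 65.8 ± 36.0 CPM (0.04, SE 0.06, adjusted p by edgeR = 0.799) and is named for the Cdk4 promoter, after its values were seen. Of 1118 tested genes with a CACGTG in a promoter window 23 fell (2.06%) and 14 rose (1.25%), near the 2.23% and 1.57% over all tested genes. With at least 2 matches 5 of 101 tested genes fell (4.95%) and 0 rose, with at least 3 matches 2 of 13 fell (15.4%), and with at least 4 matches 1 of 3, Cdk4 itself. The median log2 fold change with the block was -0.01, -0.04, -0.09 and -0.14 for at least 1, 2, 3 and 4 matches. These groups are nested and all hold Cdk4, for which the motif was chosen, so they are given without a test.

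**Figure D4:**
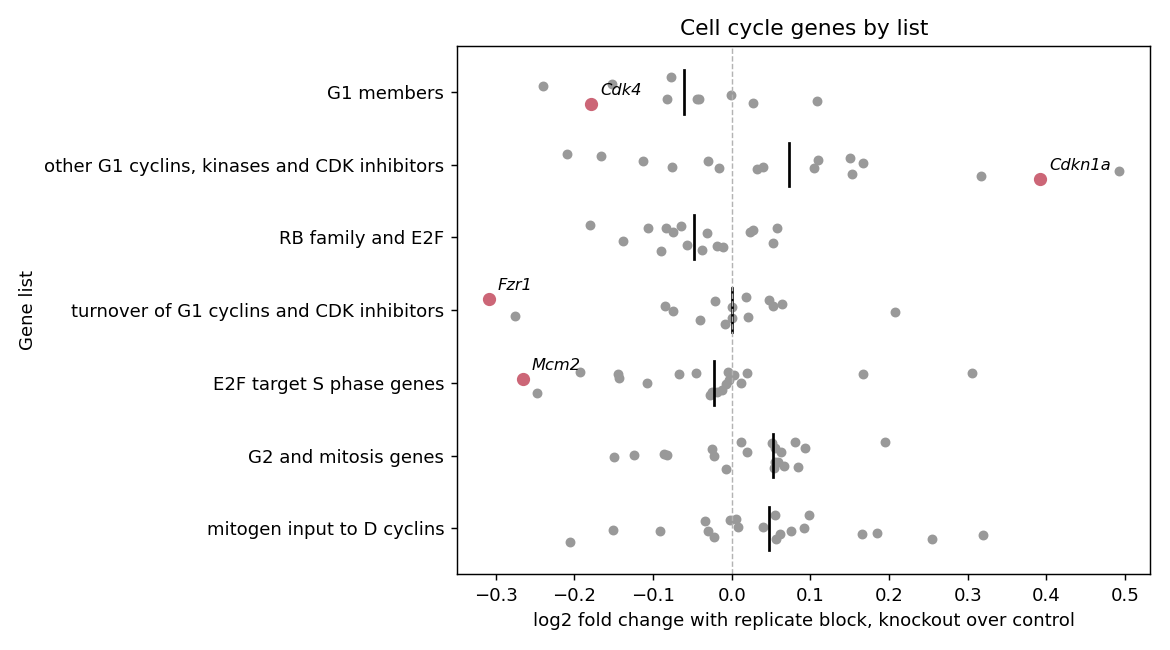
Log2 fold change with the replicate block (knockout over control) of each tested gene in 7 lists of cell cycle genes, with red points for an adjusted p under 0.05 and black bars for list medians. The 4 red points are Cdk4, Cdkn1a, Fzr1 and Mcm2, and every list median lies between -0.06 and 0.07.

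Markers of other cells moved with genotype in the same libraries as these calls. With the replicate block 4 of 13 neuron markers fell and 0 rose, with a median log2 fold change of -0.22. Of 10 endothelial markers 9 rose and 0 fell (median 1.54), and 5 of 9 ependymal and choroid plexus, 4 of 10 astrocyte and 2 of 10 pericyte and fibroblast markers rose with 0 falls. Of 12 OPC and 10 microglia markers 0 were called. Over all tested genes with the block 1.57% were called higher and 2.23% lower. The fit without the block called 0 markers of any of these cell types. The part of these cell types in the values of Cdk4, Cdkn1a, Fzr1 and Mcm2 was not tested.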

How the data were processed

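RNA-seq of 6 cultured OPC libraries was analysed from the deposited counts, whole and unnormalised numbers of read pairs for each gene symbol. The submitters' processing notes name the mm10 build with DESeq2 1.26.0, HTSeq 0.12.4 and HISAT2 2.2.1 but no roles, with strand setting not given in the sources used here. The 5 summary entries of each table were left out, holding as control and knockout means 19.7% and 20.8% of pairs for no gene, 1.46% and 1.45% ambiguous, 3.11% and 3.83% of low alignment quality, 1.03% and 1.25% unaligned and 3.46% and 3.41% with several alignments. Unused per-sample columns numbered 0.

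After edgeR's expression filter and TMM scaling, groups were compared in edgeR 4.0.16 (R 4.3.3) by its two-sided quasi-likelihood test with group as the only term and Benjamini-Hochberg adjustment over 15906 genes. Calls needed an adjusted p under 0.05. A second fit added the replicate number as a block. Numbers 1, 2 and 3 occur in both groups' labels with no stated meaning. Same-numbered libraries deviated together from their group means (r of log2 CPM deviations 0.712, 0.682 and 0.654), which was taken as pairing. No 2 libraries agreed within sampling noise. Standard errors are the log2 fold change over the root of the F statistic, and 95% intervals use edgeR's degrees of freedom. Printed CPM use gene totals alone.

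Lengths, GC content and positions came from GENCODE M21 (GRCm38), matched by symbol, and promoters from RefSeq (GRCm38.p6). The members, the lists and the motifs were chosen with earlier results of these data known. The rule for named genes took the 10 members, Prrc2b, up to 4 genes per cell cycle list by smallest blocked adjusted p, and the 2 genes most correlated with each member. Other scalings, filters, thresholds, DESeq2 1.42.0, limma-voom (limma 3.58.1), left-out libraries and pairs, and a GC correction by library medians in 20 bins were tried. The script was tested on simulated data.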

Additional observations from a re-analysis of the deposited data

Results flagged for a closer look

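Read pairs outside the gene counts differed by genotype, each with every knockout library above every control library. Pairs in no gene made up 19.7% of pairs in control and 20.8% in knockout libraries, pairs of low alignment quality 3.11% and 3.83%, and unaligned pairs 1.03% and 1.25% (means, n = 3 each). These shares were not used in any comparison of the G1 genes.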

How the results depend on the processing

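With group as the only term, edgeR called 0 genes under every scaling, filter, threshold and left-out library tried with it. Limma-voom, run once without the block, also called 0 genes, and DESeq2 called 20, with 0 G1 genes among them. With the replicate block edgeR called 604 genes, and 573 with DESeq2 size factors, 502 with library totals, 536 with upper quartile scaling, 1034 with no filter on low counts, 435 among genes averaging 5 CPM or more and 385 after GC correction. DESeq2 called 680 and limma-voom 712, and edgeR 1102 at a threshold of 0.1 and 97 at 0.01. Without pair 1, 2 or 3 the edgeR fit with the block called 444, 521 and 174 genes. The G1 genes called with the block were 1 (Cdk4) in edgeR, with DESeq2 size factors, among genes averaging 5 CPM or more, after GC correction and with DESeq2 or limma-voom, 2 (Cdk4 and Cdkn1b) with no filter or at 0.1, and 0 with library totals, with upper quartile scaling, at 0.01 or with any pair left out. The causes were not tested.

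Cdkn2c was at -0.05 on the log2 scale without the block, and changed sign to 0.056 with limma-voom, 0.027 with the block at any threshold, 0.027 with DESeq2 size factors, 0.054 with library totals, 0.053 with upper quartile scaling, 0.023 with no filter, 0.047 among genes averaging 5 CPM or more, 0.032 with DESeq2 and 0.094 after GC correction, from 0.027 on with the block. Rb1, at -0.01, changed sign to 0.020 with library totals, 0.019 with upper quartile scaling, 0.012 among genes averaging 5 CPM or more and 0.0016 with limma-voom, and with the block to 0.025, 0.025 and 0.019 under those scalings and that filter. None of these values passed. For Cdk4 the fits with libraries or pairs left out ran from -0.29 to -0.09 and for Cdkn1b from -0.32 to -0.04, with no change of sign. Leaving out libraries or pairs changed the sign of some genes that were not called in any of those fits. Their log2 fold changes then ran from -1.01 to 1.18 for Ccnd1, -0.39 to 0.15 for Ccnd2, -0.45 to 0.22 for Ccnd3, -0.22 to 0.12 for Cdk2, -0.20 to 0.14 for Cdk6, -0.69 to 0.13 for Cdkn1c, -0.37 to 0.17 for Cdkn2c and -0.13 to 0.083 for Rb1. Outside the G1 genes they ran from -0.17 to 0.044 for Tfdp2, -0.29 to 0.10 for Rbl1, -0.065 to 0.52 for Usp2, -0.17 to 3.4e-05 for Rbx1, -0.12 to 0.34 for Cdk1, -0.49 to 0.094 for Cdc20, -0.59 to 0.17 for Ube2c, -0.29 to 0.32 for Mki67, -0.18 to 0.33 for Pdgfra, -0.20 to 0.014 for Smad4, -0.44 to 0.48 for Myc and -0.13 to 0.045 for Tspan31. Counts of the G1 genes ranged from 452 to 30354 per library, so the spread between libraries, more than counting error, set the width of the intervals without the block.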
